A study of Mus musculus with 4 samples.

Results

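Interferon-stimulated genes are the genes that cells switch on when an interferon binds its receptor, and 42 of them were followed here in CMT64 mouse lung carcinoma cells. The members were taken by gene symbol from a list of interferon effectors, sensors, transcription factors and receptor chains, and all 42 were present among the 25704 genes of each deposited table. CMT64 is a single established line, grown in serum and sequenced 24 h after stimulation. The conditions were TGF-β at 5 ng/ml, costimulation with TGF-β at 5 ng/ml and TNF-α at 10 ng/ml, TNF-α alone at 10 ng/ml, and a control without added cytokine. Each condition had 1 library of oligo(dT)-selected RNA, 4 in all, so the spread between cultures was not measured. The question of the study was how TGF-β, with or without the inflammatory cytokine TNF-α, changed expression in these carcinoma cells.

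Type I interferons signal through the receptor chains Ifnar1 and Ifnar2, and interferon γ signals through Ifngr1 and Ifngr2. Janus kinases on these receptors activate transcription factors such as Stat2, which joins Irf9 in a complex that binds the interferon-stimulated response element (ISRE) in promoters, while the GAS element is found in promoters of interferon γ targets. The induced proteins sense viral RNA, degrade it, block its translation or tag other proteins with Isg15. TNF-α acts mainly through NF-κB, a factor that can also take part in inducing interferon genes, and TGF-β acts through Smad proteins.

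The libraries held 67481462 to 71898396 exon reads, of which 86.7 to 88.5% mapped uniquely, and intron reads made up 8.50% (TGF-β), 8.17% (costimulation), 8.16% (TNF-α) and 6.72% (control) of gene reads. The control library also stood apart in base composition. Across 13404 to 13426 genes of the same library pairs, transcript GC content and the log2 fold had a Spearman correlation of -0.25, -0.24 and -0.54 for TGF-β, costimulation and TNF-α over control, against 0.07 and 0.02 for costimulation over TGF-β and over TNF-α. Of 7 epithelial markers, Krt8, Krt18, Krt19 and Cdh1 had RPKM values between 121 and 1625, while Epcam, Cldn7 and Esrp1 stayed near 0. With TGF-β, 3 of the 4 epithelial markers tested fell, beside 19.9% of all genes tested. All 6 genes of a TGF-β response list rose, beside 18.6% of all genes. Haematopoietic markers summed to 1.90 to 2.38 RPKM over 12 genes, mostly from Cd68, while Ptprc (CD45) had at most 0.0151 RPKM, and of 4 tested Csf1r rose and Itgam fell with TGF-β. Endothelial markers summed to at most 0.0925 RPKM over 5 genes. Fibroblast markers summed to 9.60 and 11.5 RPKM with TGF-β and costimulation, against 0.457 and 0.481 RPKM with TNF-α and in control, nearly all from Col1a1. Their part in the results below was not tested, and in bulk RNA fewer cells with a transcript cannot be told apart from less transcript per cell.

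Most members were barely expressed. RPKM stands for exon reads scaled to exon length and mapped reads, and only 16 of the 42 members exceeded 1 RPKM in any library, while 8 stayed below 0.1 RPKM in all 4. The 7 members above 10 RPKM in at least 1 library were the interferon γ receptor chain Ifngr1, the oligoadenylate synthetase-like gene Oasl1, the ubiquitin ligase Trim25, the virion tether Bst2, the immunity-related GTPase Irgm1, the receptor chain Ifnar1 and the dNTP hydrolase Samhd1. Ifngr1 was the highest of the 42 per kilobase, with 48.2 RPKM with TGF-β, 48.1 RPKM with costimulation, 52.7 RPKM with TNF-α and 39.6 RPKM in control cells. At the other end, Rsad2, which makes the antiviral nucleotide ddhCTP, had 1, 2, 1 and 0 reads in the same order. Its neighbour Cmpk2, a nucleotide kinase, had 6, 0, 0 and 5 reads. The pattern was therefore one of expressed receptors and a few expressed effectors beside classical antiviral effectors close to the detection limit.

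**Figure D1:**
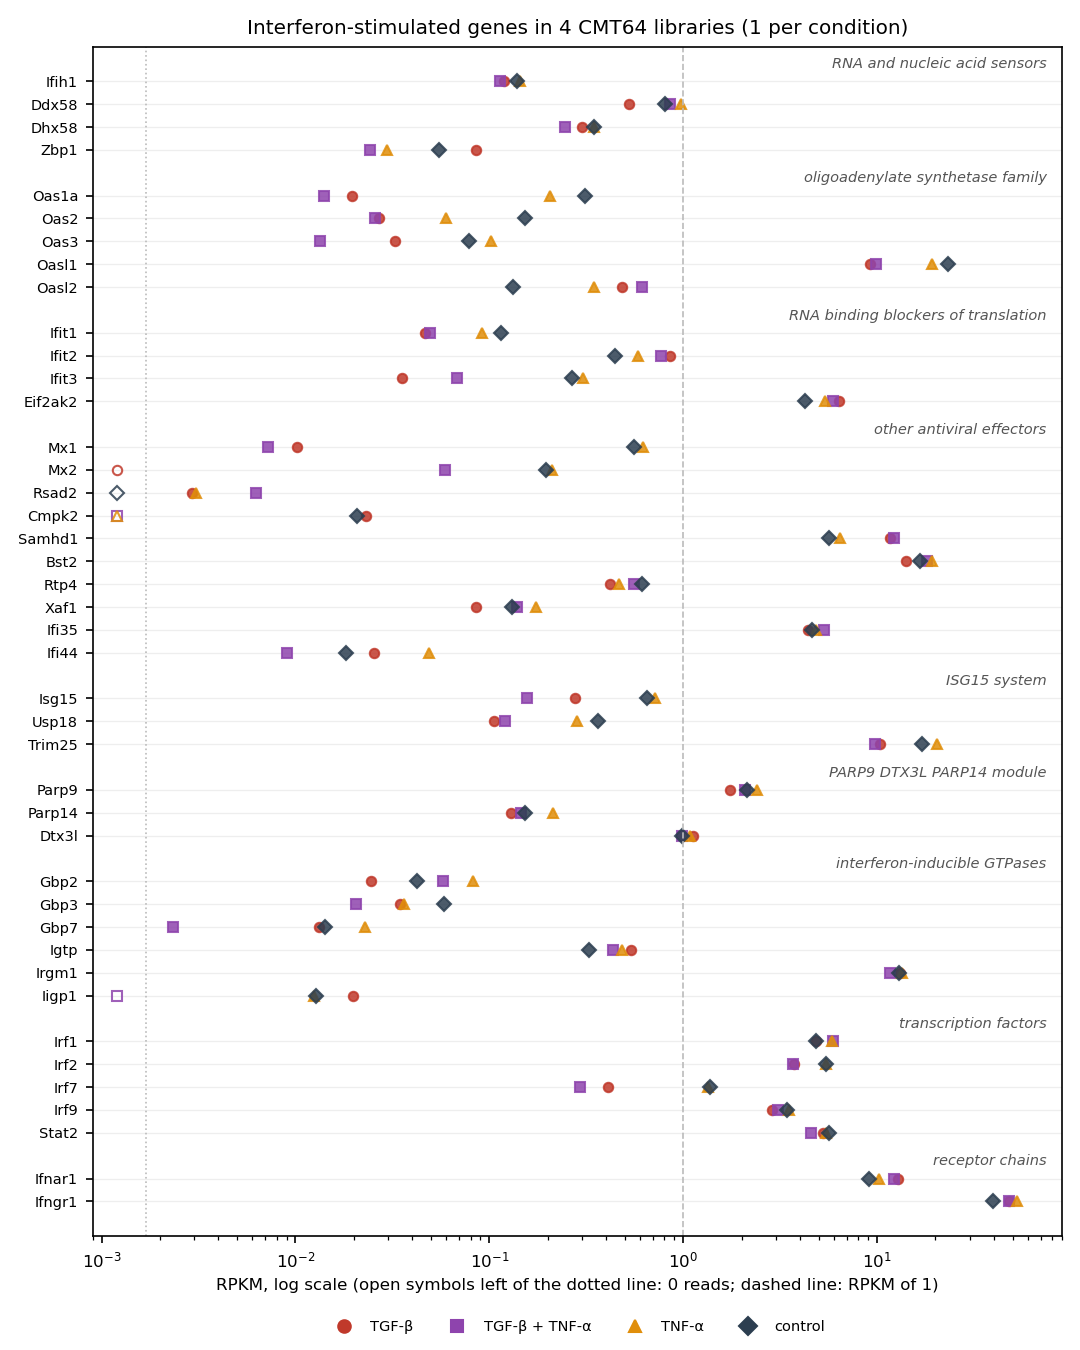
RPKM (x axis, log scale) of the 42 interferon-stimulated genes, grouped by role, in the TGF-β, costimulation, TNF-α and control libraries, with open symbols for libraries at 0 reads. Of the 42 genes, 16 exceed 1 RPKM in any library, and Mx1, Irf7, Oas1a, Oas2 and Oas3 have their TGF-β and costimulation symbols left of the other 2.

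With TGF-β, a set of mostly weakly expressed antiviral genes fell. For a test across libraries, the counts of all 4 entered a single edgeR model with an additive term for each cytokine, in which departures from additivity serve as the spread, with 1 residual degree of freedom. The spread of each gene was shrunk towards a trend over all genes. Its SE and p therefore do not measure that gene's own departure alone. Genes are said to have risen or fallen where the adjusted p of this quasi-likelihood test, Benjamini-Hochberg over 13509 genes, was under 0.05. Of the 35 members tested, 12 fell with TGF-β, beside 19.9% of all genes tested, and 2 rose, beside 18.6% of all genes. The members that fell were Mx1, Oas1a, Mx2, Ifit3, Oas3, Irf7, Oas2, Isg15, Usp18, Oasl1, Trim25 and Irf2, and those that rose were Oasl2 and Samhd1. In 8 of the 12 that fell the highest RPKM in any library was below 1. Of these, Oas1a, Oas2, Ifit3 and Mx1 had fewer than 10 reads in both libraries with TGF-β. They passed the filter on low counts only through the other 2 libraries. Mx2, Oas3 and Isg15 had fewer than 10 reads in 1 library with TGF-β and could not pass on the libraries with TGF-β alone. The count of 12 therefore supports nothing about the list as a whole. The 7 members not tested, Zbp1, Rsad2, Cmpk2, Ifi44, Gbp3, Gbp7 and Iigp1, had at most 15 reads in any library.

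Calls differed in how far they rested on single libraries. Under all 10 alternatives, which include leaving out each library, 8 of the 14 called members were called, namely Mx1, Oas1a, Ifit3, Irf7, Oasl1, Trim25, Irf2 and Samhd1. The other 6 lost the call in at least 1 fit without 1 library. Without the control library the edgeR adjusted p was 0.22 for Oas2, 0.15 for Oasl2, 0.116 for Mx2 and 0.066 for Usp18. Without the costimulation library it was 0.175 for Isg15, 0.159 for Oas3, 0.117 for Oasl2, 0.062 for Oas2 and 0.0511 for Usp18. Without the TNF-α library it was 0.106 for Mx2 and 0.0509 for Oas3, and without the TGF-β library it was 0.0816 for Usp18 and 0.0549 for Oas2. For 3 of these genes, beside Mx2, a left-out library also moved the fold by over 1.5 times. With TNF-α left out, the log2 fold change was -2.60 for Oas2 and 1.97 for Oasl2. With control left out, it was -1.23 for Oas2 and 0.59 for Oasl2. With TGF-β left out, it was -2.79 for Oas3.

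**Figure D2:**
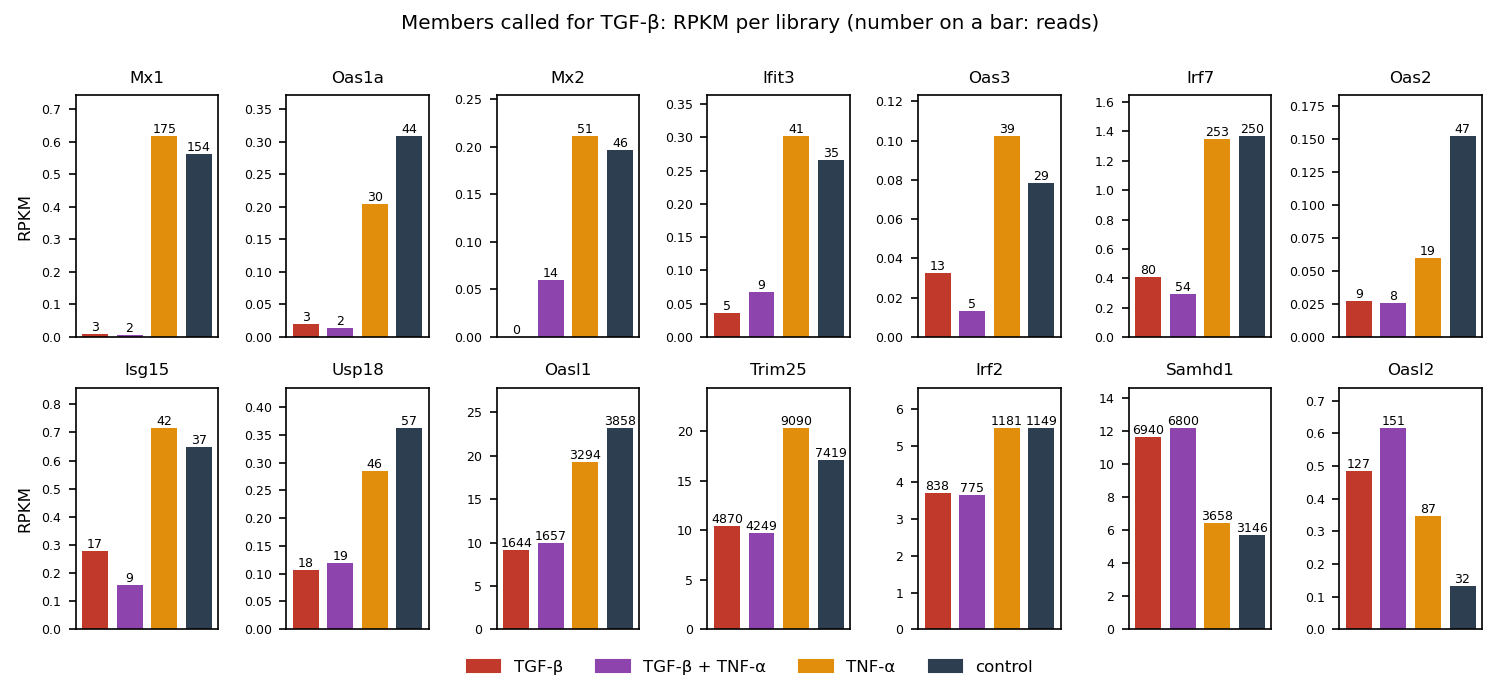
RPKM (y axis, from 0, with its own scale in each panel) of the 14 members called for TGF-β, with 1 bar per library and the exon reads written on it. The 12 genes that fell have both bars with TGF-β below both without it, and Samhd1 and Oasl2 the reverse.

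Folds between 2 libraries were taken from RPKM, with an exact 95% interval from the 2 read counts in parentheses. Reads are not independent molecules, so these intervals cover counting error only. TGF-β over control and costimulation over TNF-α share no library and give the TGF-β fold without and with TNF-α.

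The dynamin-like GTPases Mx1 and Mx2, of which mouse Mx1 blocks influenza viruses in the nucleus, showed the steepest falls with Oas1a. Mx2 is annotated as a polymorphic pseudogene, and whether either gene makes a working protein in these cells was not tested. Mx1 (chromosome 16, 97447035 to 97462907, minus strand) had 3 reads with TGF-β against 154 in control cells, and 2 reads with costimulation against 175 with TNF-α. The libraries with TGF-β were close to 0 and those without were not, and the folds were 0.0181 (0.00369 to 0.0538) and 0.0117 (0.00140 to 0.0428). Its log2 fold change was -6.07 ± 0.53 (SE, edgeR, adjusted p = 2.47e-29). Intron reads of Mx1, which come largely from unspliced transcripts, numbered 1 with TGF-β against 76 in control and 4 with costimulation against 121 with TNF-α, so the introns showed the same split as the exons. Mx2, which lies on the same chromosome, had 0 reads with TGF-β against 46 in control. With a floor of 3 reads for the library at 0, Mx2 was 16.5-fold lower. The exact counting interval of this fold reached up to 0.0774, which is at least 12.9-fold lower. With costimulation it had 14 reads against 51 with TNF-α, a fold of 0.280 (0.143 to 0.514). The log2 fold change of Mx2 was -3.08 ± 0.60 (SE, edgeR, adjusted p = 2.37e-06). Leaving out the TGF-β library gave -1.84. Leaving out costimulation gave -8.66, where the only library with TGF-β was at 0 and the value is no bound.

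Oligoadenylate synthetases make 2-5A, the second messenger that activates the ribonuclease RNase L, and the family here includes the synthetase-like genes Oasl1 and Oasl2. Of these 5 genes, 4 fell and 1 rose, beside 19.9% and 18.6% of all genes tested. Oas1a, Oas2 and Oas3 could not pass the filter on low counts on the libraries with TGF-β alone. The count of 4 therefore supports nothing about the family. Oas1a had 3 reads with TGF-β against 44 in control, and 2 reads with costimulation against 30 with TNF-α, at 62.0% uniquely mapped reads. Its log2 fold change was -3.94 ± 0.72 (SE, edgeR, adjusted p = 3.80e-07). Oas2 had 9 reads with TGF-β against 47 in control, and 8 with costimulation against 19 with TNF-α. The second of these folds, 0.430 (0.163 to 1.03), had an interval that included 1. Of the Oas2 reads, 0 with TGF-β, 41 in control, 4 with costimulation and 10 with TNF-α mapped uniquely. With unique reads Oas2 was not called. Oas3 had 13 reads with TGF-β against 29 in control, and 5 with costimulation against 39 with TNF-α. Oas2 and Oas3 had log2 fold changes of -1.98 ± 0.60 and -2.04 ± 0.59 (SE, edgeR, adjusted p = 0.0041 and 0.00231). Oas1a, Oas2 and Oas3 had at most 0.310 RPKM in any library, so their fall was one between low levels.

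Oasl1, which in mouse represses the translation of Irf7, was the only abundant member of the family. Oasl1 (chromosome 5, 114923240 to 114937915, plus strand) had 9.18 RPKM with TGF-β against 23.2 RPKM in control, and 9.89 RPKM with costimulation against 19.2 RPKM with TNF-α. With 1644 to 3858 reads per library its folds were narrow, at 0.395 (0.373 to 0.419) and 0.514 (0.484 to 0.545), and its log2 fold change was -1.22 ± 0.15 (SE, edgeR, adjusted p = 2.14e-14). Its intron reads were also fewer, at 420 with TGF-β against 586 in control and 332 with costimulation against 634 with TNF-α. Oasl2, its neighbour on the same chromosome, went the other way. It had 127 reads with TGF-β against 32 in control, and 151 reads with costimulation against 87 with TNF-α, for a log2 fold change of 1.24 ± 0.34 (SE, edgeR, adjusted p = 0.00123). Oasl2 introns had 22 reads with TGF-β against 23 in control, and 26 with costimulation against 18 with TNF-α. Both of these intron folds had intervals that included 1. In exon reads control stood lowest for Oasl2, with TNF-α between it and the libraries with TGF-β. The pair thus moved in opposite directions under the same test.

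Ifit proteins bind viral RNA or the initiation factor eIF3 and block translation, and Eif2ak2 (PKR) does so by phosphorylating eIF2α. Ifit3 had 5 reads with TGF-β against 35 in control, and 9 with costimulation against 41 with TNF-α, and fell with a log2 fold change of -2.54 ± 0.60 (SE, edgeR, adjusted p = 1.38e-04). Only 60.0% of its reads mapped uniquely. Its near copy Ifit3b was also called lower (log2 fold change -3.13 ± 0.95, SE, edgeR, adjusted p = 0.004). Ifit3 and Ifit3b can share reads, so these are not separate observations and the split between them is uncertain. Ifit1 had 10 reads with TGF-β against 23 in control, and 10 with costimulation against 19 with TNF-α, which did not pass (edgeR adjusted p = 0.127). Ifit2 lay the other way, with 273 reads with TGF-β against 131 in control, and 228 with costimulation against 179 with TNF-α. It missed the threshold narrowly (edgeR adjusted p = 0.0527) and passed it with uniquely mapped reads. Eif2ak2 had 6.40 RPKM with TGF-β against 4.25 RPKM in control, and 5.91 RPKM with costimulation against 5.38 RPKM with TNF-α, without passing (edgeR adjusted p = 0.112). The 3 Ifit genes, which lie together on chromosome 19, did not move as a block.

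Isg15 is a ubiquitin-like modifier, Usp18 removes it and also restrains the type I receptor, and Trim25 ubiquitinates the RNA sensor RIG-I. All 3 fell with TGF-β, beside 19.9% of all genes tested, but Isg15 could not pass the filter on low counts on the libraries with TGF-β alone. Isg15 (chromosome 4, 156199424 to 156200818, minus strand) had 17 reads with TGF-β against 37 in control, and 9 with costimulation against 42 with TNF-α, folds of 0.426 (0.225 to 0.776) and 0.219 (0.0937 to 0.456). Usp18 had 18 reads with TGF-β against 57 in control, and 19 with costimulation against 46 with TNF-α. Log2 fold changes were -1.73 ± 0.55 for Isg15 and -1.57 ± 0.49 for Usp18 (SE, edgeR, adjusted p = 0.00573 and 0.00496). Trim25 (chromosome 11, 88999376 to 89020293, plus strand) was the most read of the genes that fell. It had 10.4 RPKM with TGF-β against 17.1 RPKM in control, and 9.72 RPKM with costimulation against 20.4 RPKM with TNF-α. The log2 fold change of Trim25 was -0.96 ± 0.15 (SE, edgeR, adjusted p = 2.07e-09). In introns Trim25 had 306 reads with TGF-β against 438 in control, and 337 with costimulation against 551 with TNF-α. Usp18 introns had 9 reads with TGF-β against 11 in control, and 15 with costimulation against 14 with TNF-α. Both of these Usp18 intron folds had intervals that included 1.

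Among the transcription factors, Irf7, which amplifies the induction of interferon α genes, and Irf2, which competes with Irf1 for its sites, fell. Irf7 (chromosome 7, 141262706 to 141266481, minus strand) had 0.407 RPKM with TGF-β against 1.37 RPKM in control, and 0.294 RPKM with costimulation against 1.35 RPKM with TNF-α. Its folds were 0.297 (0.228 to 0.383) and 0.218 (0.159 to 0.293), and its log2 fold change was -2.03 ± 0.29 (SE, edgeR, adjusted p = 5.20e-11). The level of Irf7 without TGF-β was nearly equal in the TNF-α and control libraries, at 253 and 250 reads. Irf7 introns were few, with 16 reads with TGF-β against 18 in control, and 4 with costimulation against 10 with TNF-α. Both of these intron folds had intervals that included 1. Irf2 had 3.71 RPKM with TGF-β against 5.48 RPKM in control, and 3.67 RPKM with costimulation against 5.47 RPKM with TNF-α, a log2 fold change of -0.64 ± 0.16 (SE, edgeR, adjusted p = 2.00e-04). Its introns went with this only in part, with 154 reads with TGF-β against 145 in control and 163 with costimulation against 241 with TNF-α. The subunits of the interferon-activated complex were not called. Irf9 had 2.87 RPKM with TGF-β against 3.43 RPKM in control, and 3.10 RPKM with costimulation against 3.50 RPKM with TNF-α (edgeR adjusted p = 0.155). Stat2 had 5.27 RPKM with TGF-β against 5.67 RPKM in control, and 4.54 RPKM with costimulation against 5.43 RPKM with TNF-α (edgeR adjusted p = 0.190). Irf1, an early interferon γ target, had 4.86 RPKM with TGF-β and in control, and 5.93 RPKM with costimulation against 5.85 RPKM with TNF-α. The TGF-β folds of Irf1 were 1.00 (0.926 to 1.08) and 1.01 (0.946 to 1.09).

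Samhd1, which starves retroviruses of dNTPs, was the only abundant member to rise. Samhd1 (chromosome 2, 157097533 to 157135265, minus strand) had 11.6 RPKM with TGF-β against 5.68 RPKM in control, and 12.2 RPKM with costimulation against 6.41 RPKM with TNF-α. Its folds were 2.05 (1.96 to 2.13) and 1.90 (1.82 to 1.98), and its log2 fold change was 0.91 ± 0.15 (SE, edgeR, adjusted p = 1.89e-08). Intron reads numbered 565 with TGF-β against 185 in control, and 465 with costimulation against 195 with TNF-α, so they were higher with TGF-β as well. Other effectors were not called. Bst2 (tetherin) had 14.1 RPKM with TGF-β against 16.6 RPKM in control, and 18.1 RPKM with costimulation against 19.1 RPKM with TNF-α. Ifi35 had 4.43 to 5.35 RPKM over the 4 libraries, Rtp4 had 73 to 98 reads and Xaf1 had 19 to 37 reads. Ifi44 had at most 11 reads.

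The receptor chains, RNA sensors, GTPases and ADP-ribosyltransferases gave no call. Ifnar1 had 12.8 RPKM with TGF-β against 9.07 RPKM in control, and 12.3 RPKM with costimulation against 10.3 RPKM with TNF-α (edgeR adjusted p = 0.0925). For Ifngr1 the TGF-β fold was 0.912 (0.884 to 0.941) with TNF-α and 1.22 (1.18 to 1.26) without it, so the average effect was near 0 (log2 fold change 0.01 ± 0.15, SE, edgeR, adjusted p = 0.978). The sensors were low, with Ddx58 (RIG-I) below 1 RPKM, Ifih1 (MDA5) at 47 to 61 reads, the regulator Dhx58 (LGP2) at 45 to 65 reads and the nucleic acid sensor Zbp1 at 4 to 15 reads. Of the interferon-inducible GTPases, Irgm1 had 13.1 RPKM with TGF-β against 12.9 RPKM in control, and 11.6 RPKM with costimulation against 13.4 RPKM with TNF-α. Gbp2, Gbp3, Gbp7 and Iigp1 had at most 16 reads in any library. Igtp had 50 to 88 reads, but only 10.7% of them mapped uniquely, and it overlaps Irgm2, so its level is uncertain. The ADP-ribosyltransferases Parp9 and Parp14 and the ubiquitin ligase Dtx3l, which partners Parp9, had 1.75 to 2.41, 0.129 to 0.214 and 0.983 to 1.12 RPKM.

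Promoters of the members were searched for elements of interferon and NF-κB signalling in RefSeq windows (GRCm38.p6) of 300 bases around the start of transcription, found for 32 members. The ISRE was searched as GAAA NN GAAA, the GAS element as TTC NNN GAA and the κB site as GGG NNNNN CC, each on both strands. Matches of one motif can share bases with the next or with another motif, as in Bst2, where a GAS match at -136 runs into an ISRE match at -130. An ISRE match was found for 17 of 32 members, against 3.99% of all 27025 genes with a window. Among the members that fell it was found for 5 of 8, and among the other members for 12 of 24, a difference that was not tested. Of the members that fell Mx1, Mx2, Oas2 and Usp18 had no window. A GAS match was found for 11 of 32 members, against 9.55% of all genes, and a κB match for 21 of 32, against 53.5%. The following stretches, 5′ to 3′ on the gene's strand, are shown since Isg15, Oas1a and Ifit3 fell, while Irgm1, with an overlapping pair of matches like that of Oas1a, was not called. Capitals mark the ISRE matches, and in Ifit3 they lie on the other strand. The stretches are chr4:156200837-156200936 (minus), chr5:120907526-120907585 (minus), chr19:34583333-34583432 (plus) and chr11:48871421-48871490 (minus).
Isg15: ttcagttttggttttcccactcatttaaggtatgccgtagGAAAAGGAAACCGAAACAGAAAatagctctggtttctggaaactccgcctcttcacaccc
Oas1a: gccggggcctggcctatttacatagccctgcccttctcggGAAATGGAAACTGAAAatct
Ifit3: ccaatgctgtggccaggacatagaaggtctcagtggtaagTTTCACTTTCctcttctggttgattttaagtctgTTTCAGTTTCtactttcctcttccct
Irgm1: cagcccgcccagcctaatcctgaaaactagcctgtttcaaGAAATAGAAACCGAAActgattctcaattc
Isg15 had 3 matches that started 78 to 66 bases before the start of transcription and shared their GAAA runs, Oas1a and Irgm1 had 2 matches each that did so, and Ifit3 had 2 separate matches at -156 and -122. A match describes the letters and does not show that a factor bound there.

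Counted over libraries, both with TGF-β lay below both without it for 21 of the 39 members that had at least 20 reads in all, beside 30.1% of all 14419 such genes. They lay above for 5 members, beside 40.6% of all genes, and overlapped for 13. With TMM-scaled reads the members counted 23 below and 5 above, beside 35.6% and 33.7% of all genes, and with scaling by GC content and length 24 and 5, beside 36.3% and 37.1%. The 5 above were Samhd1, Oasl2, Ifnar1, Eif2ak2 and Ifit2. The minimum of 20 reads is a sum over libraries, so low genes such as Oas1a can enter through those where they are high. Gbp7 also counts as below, with 6 reads with TGF-β and 6 in control. These counts support nothing about the list as a whole. Among members with more than 1 RPKM in either library, TGF-β over control gave a fold above 2 for 1 of 16 (Samhd1), beside 6.68% of all genes, and below 0.5 for 2 (Oasl1 and Irf7), beside 6.63%. With TMM-scaled reads the fold of Samhd1 was 1.93 and no member exceeded 2. For costimulation over TNF-α none of 16 was above 2, beside 5.3% of all genes, and Irf7 and Trim25 were below 0.5, beside 5.88%. Irf7 exceeded 1 RPKM only in the libraries without TGF-β, so it could enter either count only as lower. With a minimum of 2 RPKM, 1 of 14 members was below 0.5 in each of these pairs. The median log2 fold was -0.08 over the 16 members and 0.07 over all genes for TGF-β over control, and -0.15 over the 16 members and 0.06 over all genes for costimulation over TNF-α.

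**Figure D3:**
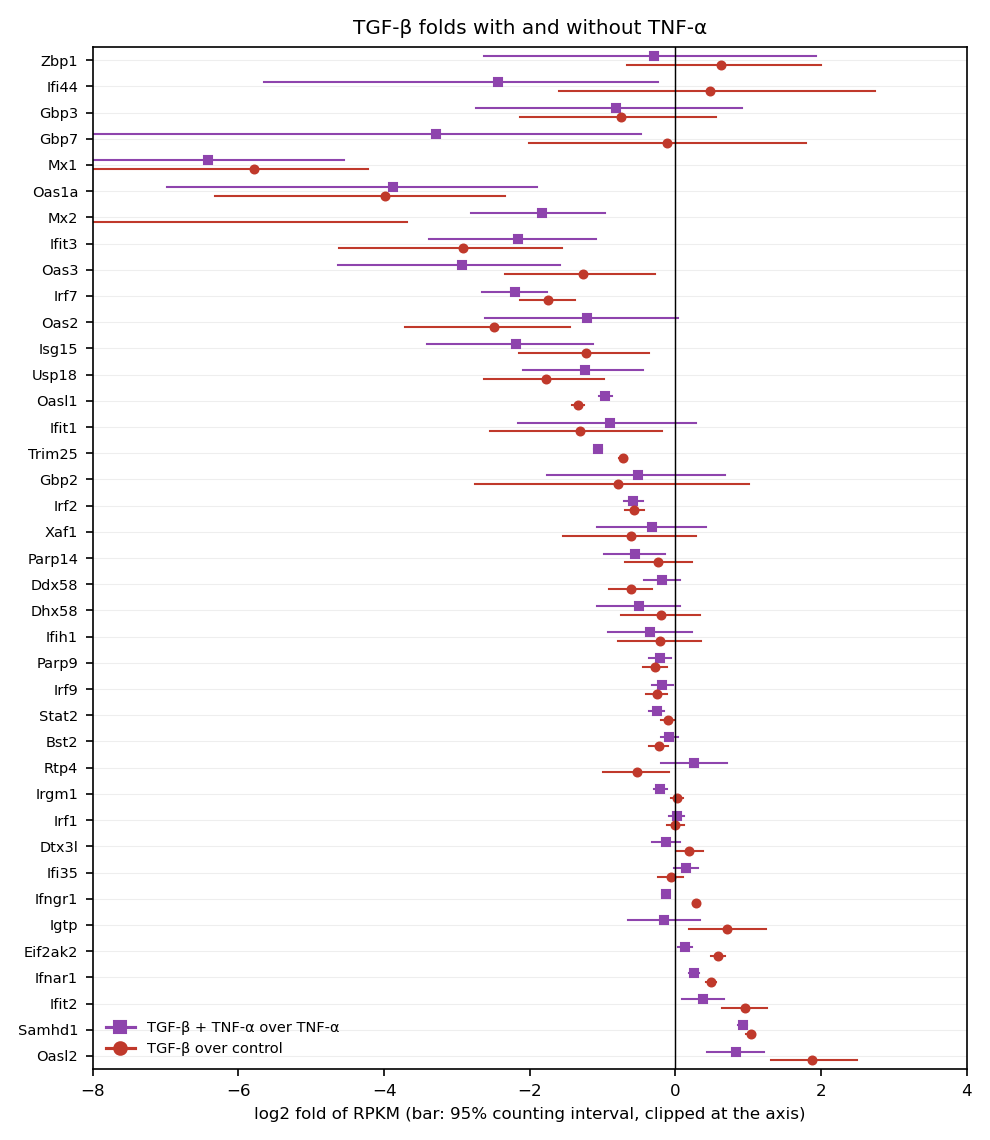
Log2 fold of RPKM (x axis) for the 39 members with at least 20 reads, as costimulation over TNF-α (squares) and TGF-β over control (circles), with 95% counting intervals and genes in order of their edgeR log2 fold change (untested genes first). Mx2 has no circle since its TGF-β library was at 0, and Ifngr1 has its symbols on opposite sides of 0.

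For 7 members the TGF-β fold with TNF-α and the fold without it had intervals that did not overlap, namely Oasl1, Oasl2, Eif2ak2, Trim25, Irgm1, Ifnar1 and Ifngr1. Oasl2 had folds of 1.77 (1.35 to 2.34) with TNF-α and 3.68 (2.48 to 5.61) without it, and Trim25 had 0.477 (0.460 to 0.495) with it and 0.609 (0.587 to 0.631) without. With 1 library per condition such differences cannot be told apart from those between single cultures. The control library takes part in 1 of the 2 folds, and offsets for GC content and length in the edgeR test called Irgm1 and Parp9 lower and Ifnar1 higher with TGF-β in addition, 17 members in all.

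No member was called for TNF-α. Of 35 members tested, 0 rose, beside 0.289% of all genes, and 0 fell, beside 0.133%. At an unadjusted p under 0.05 in edgeR 2 were higher (Oasl2 and Ddx58) and 0 lower, and DESeq2 also called 0. In the same fit 10 of 17 tested genes of an NF-κB list rose with TNF-α, among them the inhibitors Nfkbia and Tnfaip3. Nfkbia had 51.4 RPKM with TNF-α against 18.8 RPKM in control, and 26.8 RPKM with costimulation against 12.3 RPKM with TGF-β.

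Among the members Ddx58 had 0.971 RPKM with TNF-α against 0.802 RPKM in control, and 0.853 RPKM with costimulation against 0.524 RPKM with TGF-β. Its folds were 1.21 (1.02 to 1.45) and 1.63 (1.33 to 1.99), and its edgeR log2 fold change was 0.47 ± 0.24 (SE, adjusted p = 1.00). For Irf1 the TNF-α folds were 1.20 (1.12 to 1.30) and 1.22 (1.13 to 1.31), and for Bst2 1.15 (1.06 to 1.26) and 1.28 (1.17 to 1.40). Irf1 and Bst2 thus lay slightly above 1 in both pairs without passing the test. Ifngr1 had a TNF-α fold of 0.996 (0.966 to 1.03) with TGF-β and 1.33 (1.29 to 1.37) without it. Oasl2 had a TNF-α fold of 1.27 (0.997 to 1.62) with TGF-β and 2.64 (1.74 to 4.09) without it, the second on 87 reads against 32. Mx2 had 14 reads with costimulation against 0 with TGF-β, which was 4.99-fold higher with the same floor. The exact counting interval of this Mx2 fold started at 3.55. The Mx2 fold of TNF-α over control was 1.08 (0.708 to 1.64). In the opposite direction, Oas2 had 19 reads with TNF-α against 47 in control, and 8 with costimulation against 9 with TGF-β. Both libraries with TNF-α lay above both without it for 6 of 39 members, Gbp2, Ddx58, Bst2, Irf1, Xaf1 and Ifi35, beside 6.47% of all genes, and below for Zbp1, beside 5.99%. No member with more than 1 RPKM had a TNF-α fold above 2 (0 of 16, beside 0.363% of all genes) or below 0.5 (0 of 16, beside 0.21%). The median log2 fold of TNF-α over control was 0.16 over these 16 members and 0.01 over all genes.

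**Figure D4:**
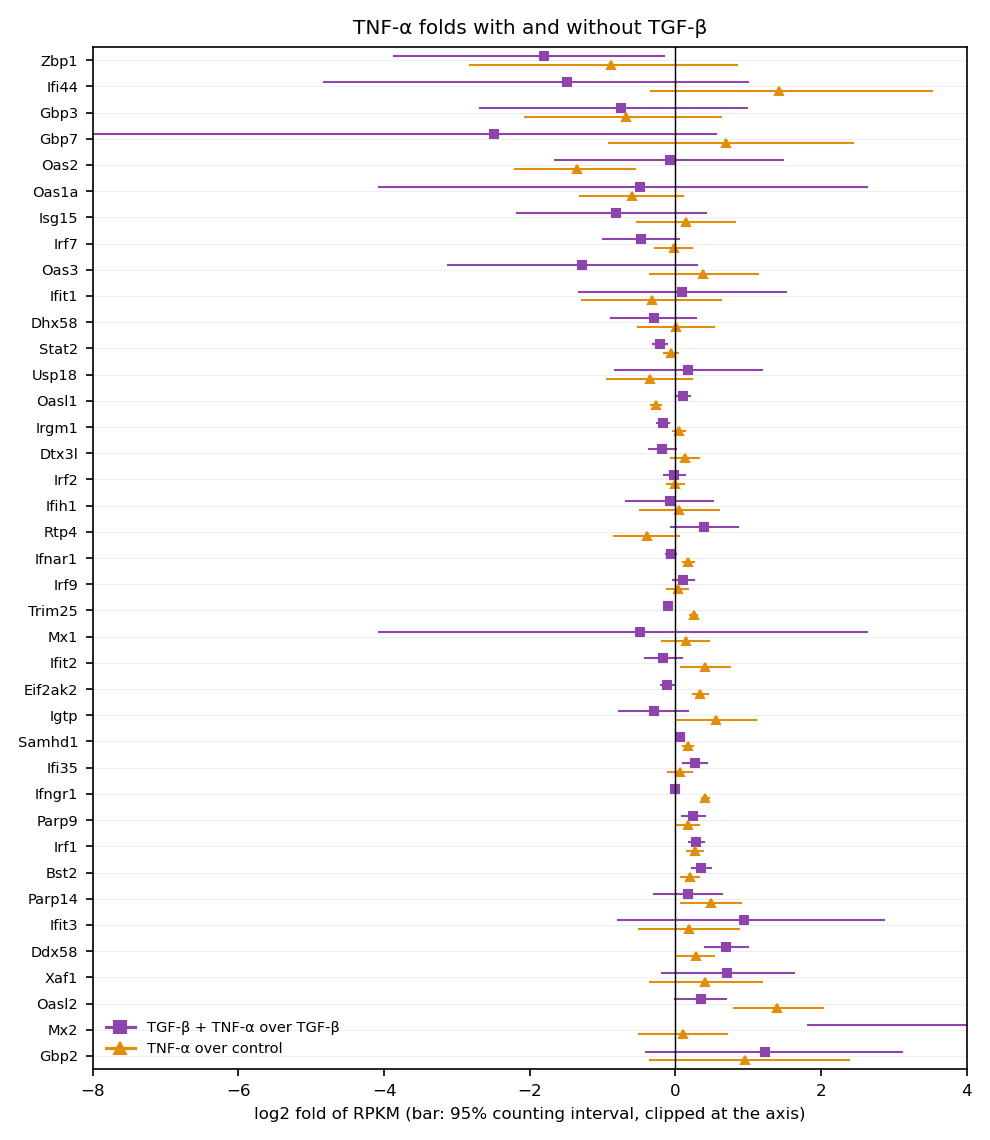
Log2 fold of RPKM (x axis) for the same 39 members, as costimulation over TGF-β (squares) and TNF-α over control (triangles), with 95% counting intervals and genes in order of their edgeR log2 fold change for TNF-α. Members with narrow intervals lie near 0, with Irf1 and Bst2 slightly above it in both pairs.

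Members above 1 RPKM had levels with costimulation within 2-fold of those with TGF-β alone. Of 15 members with more than 1 RPKM in either library, 0 had a fold of costimulation over TGF-β above 2, beside 0.239% of all genes, and 0 below 0.5, beside 0.086%, and these folds carry no test. Their median log2 fold was -0.01, and that of all genes -0.00. Over control, with which the TGF-β library was also compared, costimulation had a fold above 2 for 1 of 15 members, beside 6.64% of all genes, and below 0.5 for 2, beside 6.91%. These were Samhd1 at 2.14 (2.05 to 2.24), Oasl1 at 0.426 (0.402 to 0.451) and Irf7 at 0.214 (0.157 to 0.288), where Irf7 exceeded 1 RPKM only in control. With scaling by GC content and length the fold of Samhd1 was 1.97 and no member exceeded 2. The TGF-β folds of the same genes over the same control were 2.05, 0.395 and 0.297. The median log2 fold of costimulation over control was -0.04 for the members and 0.08 for all genes.

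Genes around the members were read from lists of the pathway. Transcripts of interferons themselves were scarce. Of 21 ligand genes 10 had any read, 0 exceeded 1 RPKM and 1 was tested, without a call. Ifnb1 and Ifng had 0 reads in the 3 libraries with cytokine, which allows up to 3 reads in each, against 1 read each in control. Of 12 further receptor and JAK-STAT genes tested, 3 fell and 1 rose with TGF-β, beside 19.9% and 18.6% of all genes tested. Ifngr2, the second chain of the interferon γ receptor, had 4.32 RPKM with TGF-β against 12.7 RPKM in control, and 6.47 RPKM with costimulation against 13.2 RPKM with TNF-α. It fell with a log2 fold change of -1.36 ± 0.15 (SE, edgeR), while its partner Ifngr1 was not called. The interferon λ receptor chain Ifnlr1 and the kinase Tyk2 also fell, and the kinase Jak2 rose.

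Of 12 genes that promote or restrain interferon induction, 5 fell with TGF-β and 1 rose, beside 19.9% and 18.6% of all genes tested. Those that fell were the adaptor Mavs, the kinase Ikbke and the factor Irf8, which promote it, and the RNA editor Adar and the nuclease Trex1, which restrain it by altering or degrading the cell's own nucleic acids. Irf8 had 6 reads with TGF-β against 28 in control, and 4 with costimulation against 15 with TNF-α. It passed the filter on low counts only through the libraries without TGF-β. Traf3, an adaptor, rose. Of 54 further interferon-stimulated genes 37 were tested, of which 10 fell and 6 rose, beside the 19.9% and 18.6% of all genes tested. Those that fell were Lgals9, Sp110, Tor3a, Tdrd7, Oas1c, Parp12, Ifitm1, Ifi27l2a, Ifit3b and the galectin ligand Lgals3bp. Among them Oas1c, Sp110 and Ifi27l2a had fewer than 10 reads in both libraries with TGF-β. They passed the filter on low counts only through the libraries without it. Ifitm1 had 6 reads with TGF-β and 13 with costimulation and could not pass on those libraries alone. The count of 10 therefore supports nothing about this list as a whole. Lgals9, a galectin, had 62.7 RPKM with TGF-β against 117.5 RPKM in control, and 55.2 RPKM with costimulation against 94.8 RPKM with TNF-α. Lgals3bp had 23.6 RPKM with TGF-β against 107.8 RPKM in control, and 21.9 RPKM with costimulation against 88.9 RPKM with TNF-α. Those that rose included the apolipoprotein Apol9b, with 20.9 RPKM with TGF-β against 0.962 RPKM in control, and 22.7 RPKM with costimulation against 0.969 RPKM with TNF-α. Apol9b and its near copy Apol9a can share reads, so the split between them is uncertain. Ifi204 and Ifi203, sensors of the p200 family, and Ifi47 and Herc6 rose too. None of these 3 lists had a gene called for TNF-α in edgeR.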

How the data were processed

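RNA of CMT64 cells was sequenced in 4 libraries, 1 per condition. Adapter removal and mapping were done by the authors in CLC Genomics Workbench (version not given in the sources used here), against mm10 per the submitters' processing notes. The deposited counts are whole reads per gene, with total reads including those with several hits. The authors derived the deposited RPKM values from exon length, mapped reads and total exon reads. The number of mapped reads that RPKM implied, 75358896 to 81245906, was used for folds and intron reads. The strand setting of the counting is not given, so reads of overlapping genes cannot be told apart, which concerns 10 members (Oas2, Rtp4, Parp9, Dtx3l, Parp14, Igtp, Irf1, Irf2, Irf7 and Irf9). In 7 members (Oas1a, Oas2, Ifit3, Rsad2, Gbp7, Igtp and Iigp1) under 70% of exon reads mapped uniquely.

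Folds of RPKM have Clopper-Pearson intervals (95%) of the conditional binomial distribution. Counts were tested in edgeR (4.0.16, R 4.3.3) with TMM, filterByExpr and robust quasi-likelihood dispersions, and SE is the log2 fold change over the square root of F. Alternatives were DESeq2 (1.42.0) and its size factors, no filter, unique reads, a single term, GC and length offsets in 10 bins, left-out libraries, and for folds other scalings, thresholds and pseudocounts of 0.1 and 1 RPKM. Promoters came from RefSeq. Python (3.11.15) with scipy (1.17.1) was used. All members are named. Pathway genes are named from those called, and Ifnb1 and Ifng were named after their values were seen. Members and lists were chosen with earlier results of these data known. One gene of a pathway list is not reported here.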

Additional observations from a re-analysis of the deposited data

Results flagged for a closer look

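For 4 members the fold of one cytokine lay on one side of 1 with the other cytokine and on the opposite side without it, with intervals that left out 1 in both cases. Each fold compares single libraries, and the difference was not tested. The TGF-β fold of Ifngr1 was 0.9122 (0.884 to 0.941) with TNF-α and 1.217 (1.18 to 1.26) without it. The TNF-α fold of Oasl1 was 1.078 (1.01 to 1.15) with TGF-β and 0.8291 (0.791 to 0.869) without it. The TNF-α fold of Eif2ak2 was 0.9243 (0.869 to 0.983) with TGF-β and 1.265 (1.18 to 1.36) without it. The TNF-α fold of Trim25 was 0.9329 (0.895 to 0.972) with TGF-β and 1.19 (1.15 to 1.23) without it. These genes had at least 1382 reads in every library, so their counting intervals are narrow, and the control library, which stood apart in GC content, enters 1 of the 2 folds of each.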

How the results depend on the processing

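Of the 14 members called for TGF-β, DESeq2 called 9 (1 higher, 8 lower), losing Oas2, Oas3, Oasl2, Isg15 and Usp18. Leaving out 1 library gave 9 to 17 called members, in fits with only the tested cytokine as a term, where a lone library is assumed to vary like the others. The lowest count was without the costimulation library and the highest without the TNF-α library. For TNF-α the fits without 1 library called no gene of any kind, so they cannot decide on the members. The same holds for the fit of all 4 libraries with only TNF-α as a term. The other alternatives called 0 members for TNF-α. For TGF-β over control, where 3 members passed the fold, a fold of 1.5 gave 5, no RPKM minimum gave 13 (median log2 fold -0.256) and a pseudocount of 1 RPKM gave 1. For costimulation over control, also with 3, no minimum gave 13 and a pseudocount of 1 gave 1. For costimulation over TNF-α, with 2, a fold of 1.5 gave 4, a minimum of 2 RPKM gave 1, no minimum gave 10 (median -0.321) and a pseudocount of 1 gave 0. For TNF-α over control no minimum gave 2 members in place of 0. The counts without a minimum include genes with few reads, at least 20 over the pair. No called gene changed direction, but the median of costimulation over control, -0.036, was 0.045 with a minimum of 2 RPKM, and that of costimulation over TGF-β, -0.005, was 0.031 with a minimum of 2 RPKM and with none. The Samhd1 fold of TGF-β over control was below 2 with TMM-scaled reads (1.93) and with scaling by GC content and length (1.87), which left 0 members above 2 and 2 below 0.5. For costimulation over control scaling by GC content and length left 0 above (Samhd1 1.97) and 3 below. No paired analysis was possible because each condition had 1 library. The test has 1 residual degree of freedom per gene and shrinks the spread towards a trend over all genes. It thus rests on departures from additivity, not on the spread between cultures.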
